A study of Mus musculus with 2 samples.

Results

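The mouse Cdkn2a and Cdkn2b genes lie side by side on chromosome 4 and were examined here with the 300 kb of DNA on each side, which gives a region of 636565 bp at chr4:88620377-89256941 of the mm9 build. Both genes were found in the GENCODE M1 annotation, 2 of its 22359 protein-coding genes. Of the 33788 CTCF peaks that the authors deposited, 7 have their summit in this region. The study measured CTCF binding by chromatin immunoprecipitation and sequencing (ChIP-seq) in R1/E cells, a line of mouse embryonic stem cells (ESCs). The cells carried CTCF fused to a green fluorescent protein (GFP) tag on a bacterial artificial chromosome, so tagged CTCF was made in addition to the cells' own protein. One library came from precipitation with a goat antibody against GFP, and the other from the same kind of chromatin with a goat IgG isotype control, which its label also calls input DNA. Both were made from untreated, formaldehyde-crosslinked cells kept in medium with serum and LIF.

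Cdkn2a makes 2 unrelated proteins from separate first exons. One transcript gives p16Ink4a, which blocks the cyclin D kinases Cdk4 and Cdk6 and so holds the retinoblastoma protein in its growth-arresting state. The other gives p19Arf, read from a different frame of the shared second exon, which restrains Mdm2 and thereby raises p53. Cdkn2b encodes p15Ink4b, a close relative of p16Ink4a that inhibits the same kinases and responds to TGF-beta. The locus is known for being held silent by Polycomb complexes in young and stem cells and for rising in senescence, and Mtap, its neighbour, encodes an enzyme that salvages methionine and adenine. CTCF is a zinc finger protein that binds a long DNA motif, can insulate promoters from enhancers and, with cohesin, anchors chromatin loops, for which the strand on which its motif lies matters.

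Cdkn2a spans chr4:88920377-88940557, or 20181 bp, on the minus strand. Cdkn2b spans chr4:88952198-88956941, or 4744 bp, on the same strand, so that 11640 bp separate the 2 genes. On the minus strand a gene reads towards falling coordinates, and upstream of it means at higher ones. The p19Arf start is at 88940557, with its first exon at 88940238-88940557, and the p16Ink4a start lies inside the first intron of the p19Arf transcript at 88928096, with its first exon at 88927890-88928096. The Cdkn2b start is at 88956941 and its first exon ends, at the downstream side, at 88956575. Mtap is the only other protein-coding gene that starts in the region, at 88783026 on the plus strand. The assembly holds 51182 unknown bases here, of which 50000 form 1 stretch that begins 5768 bp upstream of the Cdkn2b start, and no tag can be placed in it.

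The CTCF library held 8391191 tags and the IgG library 7988889, each tag 35 bp long and no position and strand listed more than once. There was 1 library per antibody and no replicate, so intervals below cover counting error only, and tests compare these 2 libraries and not conditions. Ratios are CTCF tags over IgG tags after scaling to equal totals, with exact 95% intervals. Each tag was moved by 94 bp along its strand, to the middle of a 188 bp fragment. The 7 peaks were called by the authors for more CTCF than IgG tags, so their ratios describe the peaks and are not tested.

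The CTCF motif matches of the 7 peaks are shown first, because their strand and strength differ among the peaks. Each is printed 5′ to 3′ on the motif's own strand from the mm9 reference assembly, not from the cells. The 19 motif bases are in capitals and 20 flanking bases on each side are in lower case. A match is called plus where the plus strand reads towards the typical CCACCAGGGGGC core, and only matches with a matrix p of at most 1e-05 are listed here. They lie at chr4:88774146-88774164 (plus), 88775322-88775340 (minus) and 88775582-88775600 (minus) in peak 1, at 88791458-88791476 (plus) and 88792423-88792441 (plus) in peak 2, at 88956536-88956554 (minus) in peak 3, at 89199323-89199341 (plus) in peak 6 and at 89242395-89242413 (plus) in peak 7.
Peak 1, left: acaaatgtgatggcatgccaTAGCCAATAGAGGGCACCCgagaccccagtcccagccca
Peak 1, middle: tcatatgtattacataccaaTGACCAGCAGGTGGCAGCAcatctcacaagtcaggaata
Peak 1, right: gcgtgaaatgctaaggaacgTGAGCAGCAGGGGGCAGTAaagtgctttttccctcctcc
Peak 2, left: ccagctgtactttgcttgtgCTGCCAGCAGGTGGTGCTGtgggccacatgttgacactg
Peak 2, right: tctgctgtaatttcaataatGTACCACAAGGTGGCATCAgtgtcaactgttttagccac
Peak 3 in Cdkn2b: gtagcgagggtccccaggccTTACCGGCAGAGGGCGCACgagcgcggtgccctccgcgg
Peak 6: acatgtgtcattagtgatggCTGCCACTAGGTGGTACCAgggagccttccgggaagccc
Peak 7: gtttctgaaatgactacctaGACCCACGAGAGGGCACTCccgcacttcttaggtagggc

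CTCF binding in the region was strongest next to and inside Mtap, and no deposited peak lay in Cdkn2a. Peak 1, at chr4:88773365-88775860, ranked 14 of all 33788 peaks by score, the value by which the peak caller orders peaks. Its summit at 88775445 was 51 tags high, and 99.93% of all peaks were lower. It held 152 CTCF and 16 IgG tags, a ratio of 9.04 (interval 5.39 to 16.2). The summit lies between genes, 1315 bp upstream of the start of Gm12602, a long non-coding RNA gene whose start at 88774130 the peak covers, and the peak ends 7166 bp before the Mtap start. Peak 2, at chr4:88790409-88792988 in the first intron of Mtap, ranked 119 by score, with 102 CTCF tags and 8 IgG tags, a ratio of 12.1 (5.93 to 28.9). Its summit at 88792462 was 19 tags high, and 82.2% of all peaks were lower. Peak 2 thus stood much higher in the order by score than in the order by height. It is 2580 bp wide and peak 1 is 2496 bp wide, against a median of 832 bp over all peaks.

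Both wide peaks contain several motif matches. In peak 1 the middle and right matches stand 260 bp apart on the minus strand, and the summit falls between them, 114 bp from the middle and 146 bp from the right one. Within 150 bp of their centres, the middle match had 49 CTCF and 2 IgG tags and the right match 59 and 4, windows that overlap. The left match of peak 1 lies 1176 bp from the middle one, on the plus strand and 25 bp upstream of the Gm12602 start, and had 27 CTCF tags and 2 IgG tags. Peak 1 therefore holds matches on both strands that point towards each other. The middle match scored 23.5 bits, the best in the region. In peak 2 both matches are on the plus strand and 965 bp apart, with 29 CTCF and 2 IgG tags at the right one, 30 bp from the summit, and 17 and 1 at the left one. The CTCF pileup at the centre of the left match was 7 tags, and it was higher on either side of it. The 2 CTCF-tag maxima of peak 1 and the broader run of tags in peak 2 can be seen in the plots of tag pileup.

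**Figure D1:**
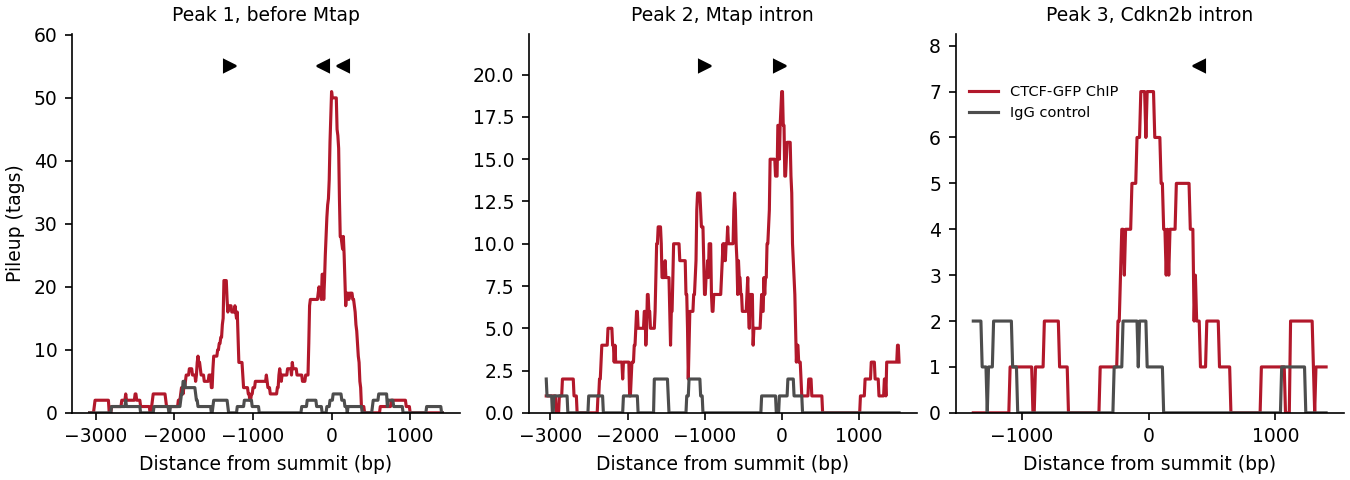
Pileup of tags, each extended to 188 bp and read every 10 bp, against distance from the deposited summit (bp) in peaks 1, 2 and 3. The y axes differ, and arrowheads mark motif matches and point right for plus and left for minus. Peak 1 reaches 51 tags between 2 minus-strand matches with a lower rise at the plus-strand match, and peak 3 stays under 10 tags with its match 394 bp from the summit.

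Cdkn2b carried 1 peak, a weak one. Peak 3 spans chr4:88955770-88956552, with its summit at 88956151 in the intron of Cdkn2b, 790 bp downstream of the start and 424 bp beyond the first exon. It was 8 tags high and only 5.28% of all peaks were lower, and 24.6% of all peaks had a lower score than its 74.21. It held 17 CTCF tags and 3 IgG tags, a ratio of 5.39 (1.56 to 28.7). Its only motif match at the main threshold had 16.7 bits and lies on the minus strand, the strand of the gene, 396 bp downstream of the start. That match stood 394 bp from the summit, and 5 CTCF tags and no IgG tag lay within 150 bp of it, against 10 and 2 within 150 bp of the summit. The bases around the summit are shown because the peak rests on them. They are chr4:88956002-88956301 on the minus strand, 43.7% G or C, and held no match even at a matrix p of 1e-04.
Cdkn2b intron summit: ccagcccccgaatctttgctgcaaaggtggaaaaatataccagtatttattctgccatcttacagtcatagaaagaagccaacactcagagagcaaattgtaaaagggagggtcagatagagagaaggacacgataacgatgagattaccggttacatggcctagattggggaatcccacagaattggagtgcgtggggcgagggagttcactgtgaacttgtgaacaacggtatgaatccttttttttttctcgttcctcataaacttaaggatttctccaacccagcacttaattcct

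The other 4 peaks lie upstream of Cdkn2b and beyond the unknown stretch, between genes and without a protein-coding start in the region. Peak 4 at chr4:89020470-89021400, 80345 bp from the p19Arf start, was 17 tags high with 29 CTCF and 8 IgG tags. Peak 5 at chr4:89191462-89192075 was 7 tags high with 17 and 2. Peak 6 at chr4:89198507-89199683 was 11 tags high with 32 and 7, and peak 7 at chr4:89241983-89242514 was 10 tags high with 11 and 1. Peak 4 was tall for its score, since 74.1% of all peaks were lower in height but only 18.3% in score, and its ratio over the whole peak was 3.45 (1.54 to 8.74), or 5.39 (1.56 to 28.7) within 150 bp of the summit. Peak 6 had 4.35 (1.89 to 11.7) over the whole peak and 2.62 (0.776 to 11.3) within 150 bp of its summit. Peak 7, with a score of 50.96, was just above the lowest score deposited, 50. Peaks 6 and 7 held a plus-strand match each, 211 bp and 75 bp from the summit. Peaks 4 and 5 held none at the main threshold, and their best weaker matches, both minus, are printed for comparison.
Peak 4, chr4:89020827-89020845: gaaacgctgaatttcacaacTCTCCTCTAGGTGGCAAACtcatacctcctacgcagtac
Peak 5, chr4:89191571-89191589: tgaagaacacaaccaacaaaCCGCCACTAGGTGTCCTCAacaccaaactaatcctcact
The match of peak 4 was 66 bp from its summit, with 17 CTCF and 2 IgG tags within 150 bp, and missed the threshold narrowly with a matrix p of 1.33e-05. The match of peak 5 was 353 bp from its summit.

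As a group, peaks 1 and 2 held 254 CTCF tags and 24 IgG tags, a ratio of 10.1 (6.62 to 16), and peaks 3 to 7 held 106 and 21, a ratio of 4.81 (2.99 to 8.08). Peaks 1 and 2 are also the only ones here with a score of at least 100. The score came from the same 2 libraries, so this split is not independent of the ratios. Within peaks 3 to 7 the ratios varied. They were 5.39, 3.45 and 4.35 for peaks 3, 4 and 6, but 8.09 (1.92 to 72.2) for peak 5 and 10.5 (1.52 to 451) for peak 7. Over all deposited peaks the ratio was 8.74 (8.68 to 8.79). The median score of the 7 peaks was 74.21 against 116.96 over all peaks, and their median height 11 tags against 13. A match within 150 bp of the summit was present in 3 of 7 peaks (42.9%, interval 9.90 to 81.6), against 73.6% of the 33756 peaks on chromosomes 1 to 19, X and Y. Anywhere in the peak it was present in 5 of 7 (71.4%, 29 to 96.3) against 81.3%, and within 50 bp of the summit in 1 of 7 (14.3%, 0.361 to 57.9) against 36.4%. With 7 peaks the intervals are wide, and at each of the 3 widths the interval included the share over all peaks. The differences were not tested.

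**Figure D2:**
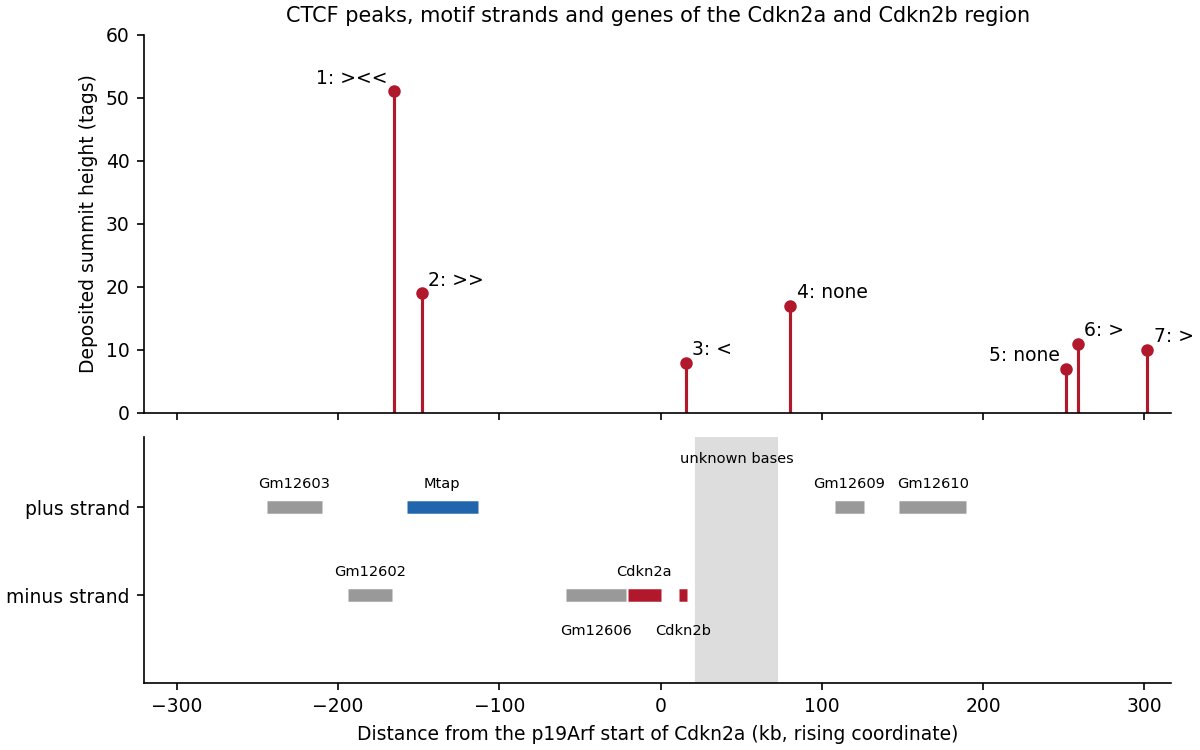
Upper panel, deposited summit height (tags) of the 7 CTCF peaks against distance (kb) from the p19Arf start, with each peak's motif strands from left to right (> plus, < minus, none where no match reached 1e-05). Lower panel, genes of over 3 kb on each strand, with Cdkn2a and Cdkn2b in red, Mtap in blue and non-coding or unclassified genes in grey. Heights of 51 and 19 stand beside Mtap, and the Cdkn2a bar has no peak over it.

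The nearest summits on either side of Cdkn2a were those of peaks 2 and 3. They stood 163689 bp apart, and 89.6% of the 33736 distances between neighbouring summits in the genome were shorter, with a median of 25632 bp. Tags could be placed only in part of this gap. In whole 10 kb windows between the 2 summits, 29.5% to 97.9% of 35 bp stretches occurred once in the genome. The lowest shares were 29.5%, 31.2% and 34.9%, and the window with 29.5% held 3 CTCF and 4 IgG tags. The part of this in the length of the gap was not tested. The next distance, from the Cdkn2b intron to peak 4, was 64751 bp and holds the unknown stretch, in which no peak could be called. Peaks 4 and 5 were 171031 bp apart, and 90.2% of all distances were shorter. Peak 1 and the summit to its left, outside the region, were 256996 bp apart. In contrast, peaks 1 and 2 were only 17017 bp apart. The region as a whole held 12.0 peaks per Mb of known sequence, against 14.7 on chromosome 4 and 13.2 in the genome, and 53.3% of 3978 windows of the same length held fewer than 7 peaks. Along the chromosome the motif strands of the 8 matches ran plus, minus, minus in peak 1, plus, plus in peak 2, minus in peak 3 and plus, plus in peaks 6 and 7. The peaks that flank Cdkn2a, peak 2 in Mtap and peak 3 in Cdkn2b, thus have matches on opposite strands that point at each other across Cdkn2a. The peak 3 match is a weak partner, 394 bp from its summit. It had 5 CTCF tags within 150 bp, the fewest of the 8 matches. The share of such pairs among all neighbouring peaks is not given here, and loops were not measured.

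Over the whole region the CTCF library had 2020 tags and the IgG library 1803, a ratio of 1.07 (1.00 to 1.14). Of 64 windows of 10 kb, 4 had no tag of either library and all 4 lie in the unknown stretch. The median window held 28 CTCF and 30.5 IgG tags. Only 4 windows exceeded 60 CTCF tags, the highest with 185, while no IgG window exceeded 49. With the peaks left out, CTCF tags were at 28.8 per 10 kb against 30.0 on the rest of chromosome 4, a ratio of 0.960 (0.915 to 1.01), and IgG tags at 30.5 against 30.9, a ratio of 0.987 (0.941 to 1.03). Both intervals include 1. Of all 35 bp stretches with known bases, 85.9% occurred once in the genome in the region and 84.0% on the rest of the chromosome. With the same tags divided by the number of such positions in place of all known bases, the CTCF ratio was 0.939 (0.894 to 0.985) and the IgG ratio 0.965 (0.920 to 1.01), so the CTCF interval then lay just under 1. Tags on the gene bodies numbered 68 CTCF and 48 IgG over Cdkn2a, a ratio of 1.35 (0.919 to 1.99), and 33 and 12 over Cdkn2b, a ratio of 2.62 (1.32 to 5.57), of which peak 3 supplied 17 and 3.

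**Figure D3:**
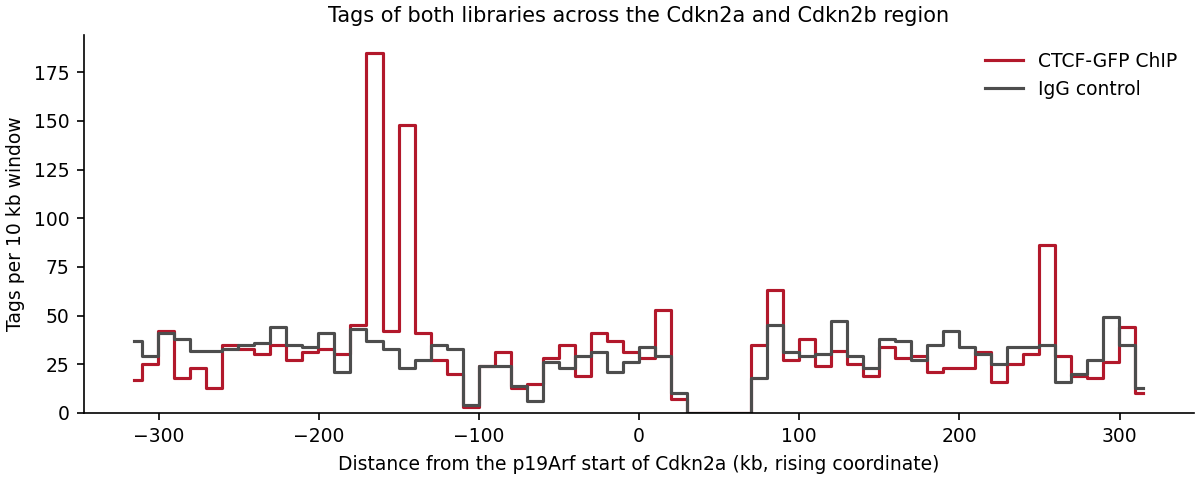
Tags of the CTCF and IgG libraries in 10 kb windows against distance (kb) from the p19Arf start. The highest window holds 185 CTCF tags, and the 4 windows with no tag are those of unknown bases.

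The 3 starts of the 2 genes were then examined one by one, each with its tags within 500 bp on either side. The p19Arf start had 5 CTCF tags and 1 IgG tag, a ratio of 4.76 (0.533 to 225). The p16Ink4a start had 8 and 1, a ratio of 7.62 (1.02 to 338), and the Cdkn2b start had 6 and 1, a ratio of 5.71 (0.693 to 263). Each start therefore rests on few tags, though the median protein-coding start had 3 and 2. By the exact two-sided binomial test with Benjamini-Hochberg adjustment over all 29731 protein-coding starts with a tag, the adjusted p was 0.844 for p19Arf, 0.373 for p16Ink4a and 0.636 for Cdkn2b. None of the 3 passed, while 4.48% of all tested starts did with CTCF higher. Unadjusted, the p of p16Ink4a was 0.0396 by the same exact test, and 9.50% of all tested starts had an unadjusted p under 0.05 with CTCF higher. The Mtap start, for comparison, had 11 CTCF tags and 5 IgG tags with an adjusted p of 0.844 in the exact test.

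Within 1 kb on either side, more tags came into view at 2 starts. The p16Ink4a start had 16 CTCF tags and 1 IgG tag, a ratio of 15.2 (2.37 to 639) with an adjusted p of 0.00522 in the exact binomial test. At this width the median protein-coding start had 7 CTCF and 5 IgG tags. The p16Ink4a ratio thus rests both on a higher CTCF count and on a low IgG count. The Cdkn2b start had 22 and 6, a ratio of 3.49 (1.37 to 10.5) with an adjusted p of 0.0445 in the exact test, and this window takes in the summit of peak 3. The p19Arf start had 5 and 2 and an adjusted exact p of 0.847. So 2 of 3 starts passed at this width, against 9.34% of all starts tested. The Cdkn2b pass is not independent of peak 3, which was called from these same tags. Of its 22 CTCF tags, 7 lay 500 to 749 bp and 8 lay 750 to 999 bp downstream, inside that peak. A summit within 1 kb was present at 1 of the 3 starts, that of Cdkn2b, against 7.09% of all protein-coding starts. The p16Ink4a start passed with no deposited peak within 1 kb, which was so for 2.60% of the tested starts that had no peak there. Within 2 kb the p16Ink4a start had 21 and 5 tags and an adjusted exact p of 0.0205, the Cdkn2b start 30 and 12 with 0.0523, and the p19Arf start 14 and 5 with 0.237. At that width 15.6% of all tested starts passed with CTCF higher.

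The tags lay in different places at the 3 starts. At p16Ink4a the fullest 250 bp bin ran from -750 to -501 bp, counted in the direction of the gene with minus for upstream, and held 5 CTCF tags and no IgG tag. The pileup reached 5 tags at -604 bp. A further 3 CTCF tags lay 250 to 499 bp downstream, in the intron beyond the exon. At Cdkn2b the tags were downstream, with 7 and 0 in the bin from 500 to 749 bp and 8 and 3 in the bin from 750 to 999 bp. At p19Arf no bin within 2 kb held more than 2 CTCF tags, and the pileup within 1 kb reached 3. The bases around this p16Ink4a maximum are shown, chosen after the tags were seen. They are chr4:88928551-88928850 on the minus strand, with no motif match at 1e-04.
Upstream of p16Ink4a: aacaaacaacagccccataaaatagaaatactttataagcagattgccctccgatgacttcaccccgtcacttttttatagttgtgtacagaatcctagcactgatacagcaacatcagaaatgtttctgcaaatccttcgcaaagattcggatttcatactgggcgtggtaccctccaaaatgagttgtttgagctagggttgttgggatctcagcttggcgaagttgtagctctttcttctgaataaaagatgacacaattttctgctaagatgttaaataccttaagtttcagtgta

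**Figure D4:**
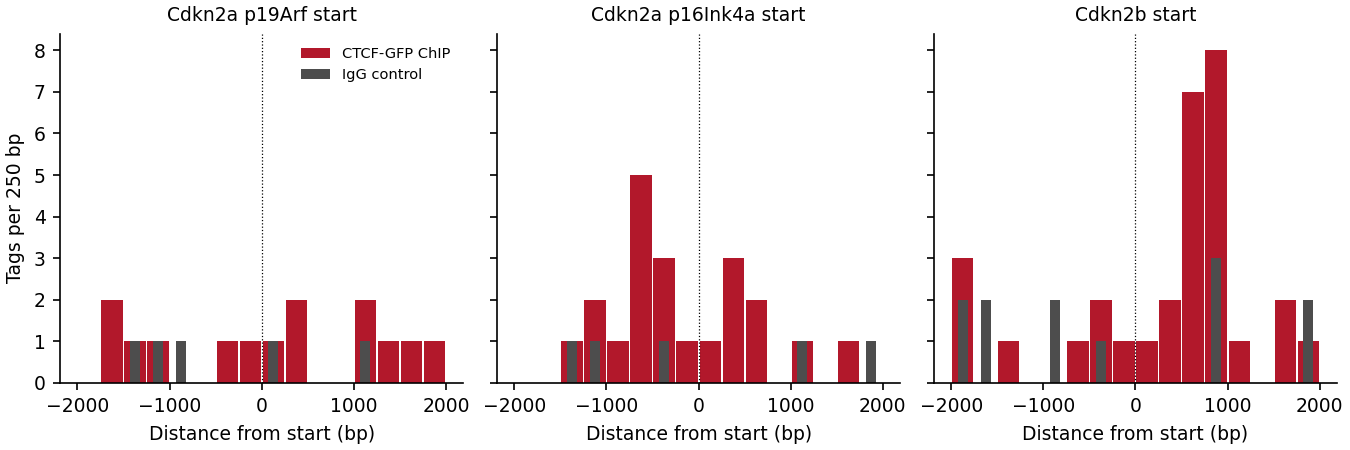
Tags per 250 bp bin in the CTCF library (wide red bars) and the IgG library (narrow grey bars) against distance (bp) from each start in the direction of the gene. No bin at p19Arf exceeds 2 CTCF tags, the p16Ink4a bins peak at 5 upstream, and the Cdkn2b bins reach 7 and 8 downstream.

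The starts also differ in sequence. Within 500 bp of it, the p19Arf start was 67.0% G or C with 108 CpG pairs, the Cdkn2b start 58.3% with 63 and the p16Ink4a start 52.5% with 37. The medians over all protein-coding starts were 53.2% and 27. All 3 starts were thus above the median in CpG pairs, p19Arf the most. Every 35 bp stretch within 500 bp of the 3 starts occurred once in the genome, so tags could be placed there throughout. A motif match at the main threshold within 1 kb was present at the Cdkn2b start, the one in peak 3, and at neither Cdkn2a start, while 28.1% of all protein-coding starts had one. At the looser threshold of 1e-04, which 78.8% of starts met, the p19Arf start had a plus-strand match at -87 bp with 1 CTCF tag and no IgG tag, and a minus-strand match at -695 bp with none of either. The p16Ink4a start had 3 such matches, all plus, at 431, 227 and -159 bp, with 4, 3 and 1 CTCF tags and no IgG tag. The windows of the matches at 431 and 227 bp overlap. Beside its match at the main threshold, the Cdkn2b start had a plus-strand match at 462 bp with 6 CTCF tags. It also had a minus-strand match at 150 bp with 1 CTCF tag, and neither had an IgG tag. The 250 bases before each start are printed in the direction of the gene, at chr4:88940558-88940807 for p19Arf, 88928097-88928346 for p16Ink4a and 88956942-88957191 for Cdkn2b, to show their base make-up, with the weak matches in capitals. In this direction a plus-strand match appears as its reverse complement.
p19Arf: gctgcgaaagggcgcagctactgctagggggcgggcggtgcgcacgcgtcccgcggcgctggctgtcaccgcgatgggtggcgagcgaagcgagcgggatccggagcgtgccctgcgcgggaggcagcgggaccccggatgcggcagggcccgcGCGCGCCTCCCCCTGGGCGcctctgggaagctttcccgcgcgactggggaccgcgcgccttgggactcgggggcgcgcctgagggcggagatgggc
p16Ink4a: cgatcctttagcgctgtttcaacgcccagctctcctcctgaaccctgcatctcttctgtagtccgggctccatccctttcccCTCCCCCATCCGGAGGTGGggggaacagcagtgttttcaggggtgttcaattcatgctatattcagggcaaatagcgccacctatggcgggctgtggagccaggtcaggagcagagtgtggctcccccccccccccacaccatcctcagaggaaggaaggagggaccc
Cdkn2b: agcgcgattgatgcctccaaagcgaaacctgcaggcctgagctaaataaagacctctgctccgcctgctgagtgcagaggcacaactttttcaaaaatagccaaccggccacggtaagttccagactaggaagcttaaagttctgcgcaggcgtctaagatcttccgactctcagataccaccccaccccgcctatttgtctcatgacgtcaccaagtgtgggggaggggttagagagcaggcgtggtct

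A motif match alone did not mark a peak in this region. There were 58 matches at 1e-05, and 8 of them (13.8%, interval 6.15 to 25.4) lay in a deposited peak, against 12.5% of 258453 matches in the genome. The 8 matches in peaks had 5 to 59 CTCF tags within 150 bp, with the Cdkn2b match the lowest. The other 50 had 0 to 6 CTCF tags with a median of 1, and 0 to 3 IgG tags with a median of 0.5, and summed to 57 CTCF and 35 IgG tags, a ratio of 1.55 (1.00 to 2.43). Matches outside peaks scored up to 21.6 bits, above 7 of the 8 inside. The 19 bases of that best match occurred at 595 matches in the genome, of which 56 (9.41%) lay in a deposited peak. Around the best match, 61.5% of 35 bp stretches occurred once. Among outside matches with at most 10 such copies, the best scored 17.7 bits. Cdkn2a holds 1 match, in an intron at chr4:88933690-88933708 on the minus strand, with 15.9 bits and no tag of either library within 150 bp. Around that match, 64.1% of 35 bp stretches occurred once in the genome. A second match in Cdkn2b, at 88954451-88954469 on the minus strand, had 16 bits and 1 CTCF tag.

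Many of the matches outside peaks were copies of repeated sequence. For 20 of the 58 matches the same 19 bases occurred at more than 10 matches in the genome, and 0 of these 20 lay in a peak. Over the genome, the commonest of these sequences also lay in a peak at few of their matches, from 1.07% to 9.41%. Of the 8 matches in peaks, 7 had 19 bases found at a single match in the genome. The shares over all repeated and all single matches of the genome are not given here, so neither count is a trait of this region. The 2 commonest copies are identical, at chr4:88894964-88894982 (minus) left of Cdkn2a and at 89017931-89017949 (plus) beyond the unknown stretch. They are printed to show how close such a repeat comes to the motif.
Repeated match, 19 bases: ACACCAGAAGAGGGCATCA
These bases occurred at 11700 matches in the genome, of which 306 (2.62%) lay in a deposited peak, and each copy in the region had 1 CTCF tag within 150 bp. About each copy, 72.4% and 65.1% of 35 bp stretches occurred once in the genome, so tags there can be placed only in part, and the share of this in the low tag counts was not tested.

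**Figure D5:**
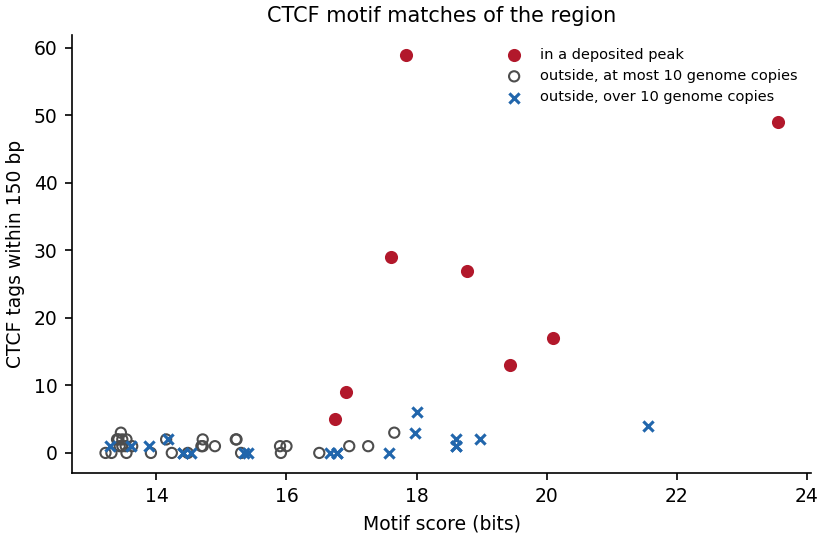
CTCF tags within 150 bp of each of the 58 motif matches against motif score (bits). Filled red circles are the 8 matches in deposited peaks, open circles are matches outside with at most 10 copies of their 19 bases in the genome, and crosses those with more. Outside peaks no match exceeds 6 CTCF tags, although scores reach 21.6 bits among the crosses and 17.7 bits among the open circles.

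The genes that act with these inhibitors were looked at in the same way, at 41 starts of 27 genes: cyclin D, its kinases and other kinase inhibitors, the retinoblastoma, E2F and p53 branches, and the Polycomb genes. Of the 39 starts with a tag, 0 passed the adjusted exact test in either direction, against 4.48% of all tested starts with CTCF higher. An unadjusted p under 0.05 with CTCF higher was found at 3 of the 39, against 9.50% of all tested starts, so the list did not exceed the general share. These 3 were a start of Mdm2, the p53 inhibitor that p19Arf restrains, with 8 CTCF tags and 1 IgG tag, one of Cbx7, a Polycomb subunit, with 10 and 1, and one of E2f2, a cell cycle transcription factor, with 6 and 0. A summit within 1 kb was present at 3 of the 41 starts, 2 of Trp53, which encodes p53, and 1 of E2f2, against 7.09% of all protein-coding starts, which is about the same share. The 2 other genes of the family, Cdkn2c (p18Ink4c) and Cdkn2d (p19Ink4d), had no summit within 1 kb. The Cdkn2c starts had 8 CTCF and 3 IgG tags and 5 and 2, and the Cdkn2d start had no tag of either library. The median log2 ratio over the starts of the 27 genes was 1.07, against 0.41 over all starts, with 0.5 added to each count. No listed start held more than the 10 CTCF tags of Cbx7, so these ratios rest on small counts. The difference between the medians was not tested.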

How the data were processed

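CTCF-GFP and IgG ChIP-seq libraries of R1/E ESCs, 1 each, were sequenced on the Genome Analyzer II. The authors deposited the aligned tags of each library on mm9 as positions that each carry a count, and peaks called with MACS 1.4 against IgG, each with a deposited score and a summit height that is a signal in tags. The aligner is not given in the sources used here. Genes came from GENCODE M1 and sequence from NCBIM37, the same build as mm9. The 2 genes, the lists and the tests were chosen with earlier results of these data known. The genes to be named were the 2 genes with every start, protein-coding genes that start in the region, and a list of 27 pathway and Polycomb genes, of which those given with values were picked after the values were seen.

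Tags were moved 94 bp and counted without further normalisation. Ratios were scaled by library totals with exact 95% intervals. Starts under 500 bp apart were merged, and windows of 500 bp were tested with an exact two-sided binomial test and Benjamini-Hochberg adjustment at 0.05 (scipy 1.17.1). A CTCF matrix (pseudocount 1, background of 0.21 per G or C base and 0.29 per A or T base) was built from 192 sequences. The study listed these as CTCF motif matches at ESC binding sites of RAD21, a cohesin subunit. Matrix p-values of matches were computed exactly. The procedures were tested on simulated data. Alternatives covered the score limit, flanks, windows, scaling, tag shift, motif threshold and annotation.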

Additional observations from a re-analysis of the deposited data

How the results depend on the processing

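Of 37 alternatives over 12 results, 25 stayed on the same side of the threshold or, for values with no test, inside the 95% interval of the main value or near the main count. A further 9 moved past those limits, and 3 brought a start past the threshold. The 95% intervals of shares over 7 peaks or 58 matches are wide. They also take in 14.3% of peaks with a match within 50 bp, against 42.9% within 150 bp. The same holds for 6.90% of matches within 150 bp of a summit, against 13.8% in peaks. In the genome, 10.2% of matches lay within 150 bp of a summit. The region held 2 peaks with a score of at least 100, or 3.42 peaks per Mb against 8.64 on chromosome 4 and 7.81 in the genome, where 34.4% of windows held fewer. It held 2 peaks with flanks of 100 kb and 16 with flanks of 500 kb. The p16Ink4a ratio was 15.2 within 1 kb and 4.0 within 2 kb, and the Cdkn2b ratio 3.49 within 1 kb, all past the threshold, which none of these starts passed within 500 bp. The Cdkn2b window of 1 kb takes in the summit of peak 3, called from the same tags. Of all tested starts, 9.34% passed with CTCF higher within 1 kb and 15.6% within 2 kb. The starts called in the genome with CTCF higher numbered 1332, 2877 within 1 kb and 2023 with all genes of the annotation. From the first to the last base of the 2 genes, tag density outside peaks against chromosome 4 was 1.10 (0.910 to 1.32) for CTCF, above 1 where the region as a whole was at 0.960, and 0.841 for IgG, with intervals that include 1. At a motif threshold of 1e-06, 6 of 17 matches (35.3%, interval 14.2 to 61.7) lay in peaks, against 24.4% in the genome. No paired analysis was possible because each antibody had a single library. Depth limits the starts, each with 1 IgG tag within 500 bp, and p16Ink4a also had only 1 within 1 kb. The cause of the differences between settings was not tested.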
